A study of Mus musculus with 9 samples.

Results

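The genes described here are 33 markers of lymphocytes, 13 of T cells, 11 of natural killer (NK) and cytotoxic cells and 9 of B and plasma cells, out of 18194 genes measured on the arrays. They were taken from a list of lineage markers, chosen with earlier results of these data known. Each was read from the probe set that carries exactly 1 gene symbol and has the highest mean over the 9 arrays, a rule that uses the level of a gene and not its difference between groups. A probe set was found for 32 of them. The remaining one, the T cell kinase gene Lck, had no such probe set in the annotation table and was not analysed here. For 10 members several probe sets existed, and the others are mentioned where they disagree.

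RNA came from 9 pieces of liver tissue of male C57Bl6 mice, 12 months old, untreated and on regular chow, with 3 pieces and 3 arrays per group. The tumor pieces came from a hepatocellular carcinoma with severe steatosis in a SART1+/- mouse. The adjacent pieces came from the liver beside that tumor in the same SART1+/- mouse, labelled as cellular alteration with severe steatosis. The wild-type pieces came from the liver of a wild-type mouse, labelled as normal with mild steatosis. Male SART1+/- mice are described as developing liver tumors from 10 months of age. Each group is therefore 1 animal, and tissue state, genotype, steatosis and animal cannot be told apart between wild-type liver and the other groups. Every p-value below measures the spread between pieces, not between animals.

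Lymphocytes form 3 main lineages. T cells recognise antigen through a receptor whose signal passes through the CD3 chains, with CD4 or CD8 as co-receptor. NK cells and cytotoxic T cells kill target cells by releasing granules of perforin and granzymes, and the mouse liver is known for its large resident population of NK and related cells. B cells carry surface antibody coupled to the chains CD79a and CD79b, and plasma cells secrete antibody, joined into polymers of IgM and IgA by the J chain.

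Array medians lay between 5.76 and 5.81 on the log2 scale, and no pair of arrays held identical values. The targeted gene Sart1 was at 7.77, 7.71 and 7.75 log2 in tumor, 8.34, 8.39 and 8.38 in adjacent liver and 8.35, 8.32 and 8.36 in wild-type liver. Tumor thus lay below wild-type liver (limma adjusted p = 2.61e-06), while the pieces labelled as adjacent liver of the SART1+/- mouse lay at the wild-type level (log2 difference 0.03, adjusted p = 0.678). Their Sart1 level thus does not bear out the heterozygous genotype on the label. The label was kept, and adjacent liver below means the pieces labelled so. The 18S ribosomal RNA control probe set, whose level depends on sample preparation, read 6.50 to 6.54 log2 in tumor, 6.27 to 6.68 in adjacent liver and 6.92 to 8.31 in wild-type liver. The gap between the 3' and 5' probe sets of Actb, a measure of RNA integrity, was 0.54 to 0.69 in tumor, 0.82 to 0.91 in adjacent liver and 0.83 to 0.88 in wild-type liver. The part of these differences in the results below was not tested.

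The median level of the 32 lymphocyte markers was 5.84 log2, lower than the 6.89 of all genes. The median marker ranked at percentile 50.4 of all probe sets, near the middle of the arrays. The files hold no detection calls, so a gene was taken to stand out from the low end of an array when it exceeded the 40th percentile of that array, which lay between 5.16 and 5.26 log2. On the 3 arrays of each group, 25, 24 and 24 members passed in tumor, 25, 24 and 26 in adjacent liver, and 24, 23 and 23 in wild-type liver. On all 9 arrays 21 members passed, 8 T cell, 7 NK and cytotoxic and 6 B and plasma cell markers, a share of 65.6% against 69.9% of all genes. On at least 3 arrays 25 passed (78.1%, against 76.3% of all genes), and these 25 were tested. Both shares are near those of all genes.

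The markers that stayed at the low end included several lineage-restricted ones. Cd28, a co-stimulatory receptor, Foxp3, the regulator of regulatory T cells, Ifng, the cytokine interferon gamma, Fasl, a death ligand, and Cr2 and Fcer2a, receptors of mature B cells, passed on none of the 9 arrays, at levels between 3.24 and 5.13 log2. Ncr1, the activating receptor NKp46 that marks NK cells, passed on 1 array, an adjacent one. These 7 members were not tested, and a low value on an array without detection calls does not show that a gene was absent.

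As a yardstick for background, 24 genes of eye, brain, testis and skin ranged between 2.76 and 7.30 log2 on the same arrays, and 11 of them also passed the filter. Only Cd3e, Nkg7, Jchain and Cd22 had any value above that range, and 28 members had none. The median level of these genes was lower, at 4.88 log2 against 5.84 for the members. Of the 11 that passed, 1 was called higher in adjacent than in wild-type liver and 1 lower in tumor than in adjacent liver. The list is therefore not background alone, and its highest value is a loose limit. In bulk tissue, fewer cells of a type and less RNA per cell cannot be told apart.

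**Figure D1:**
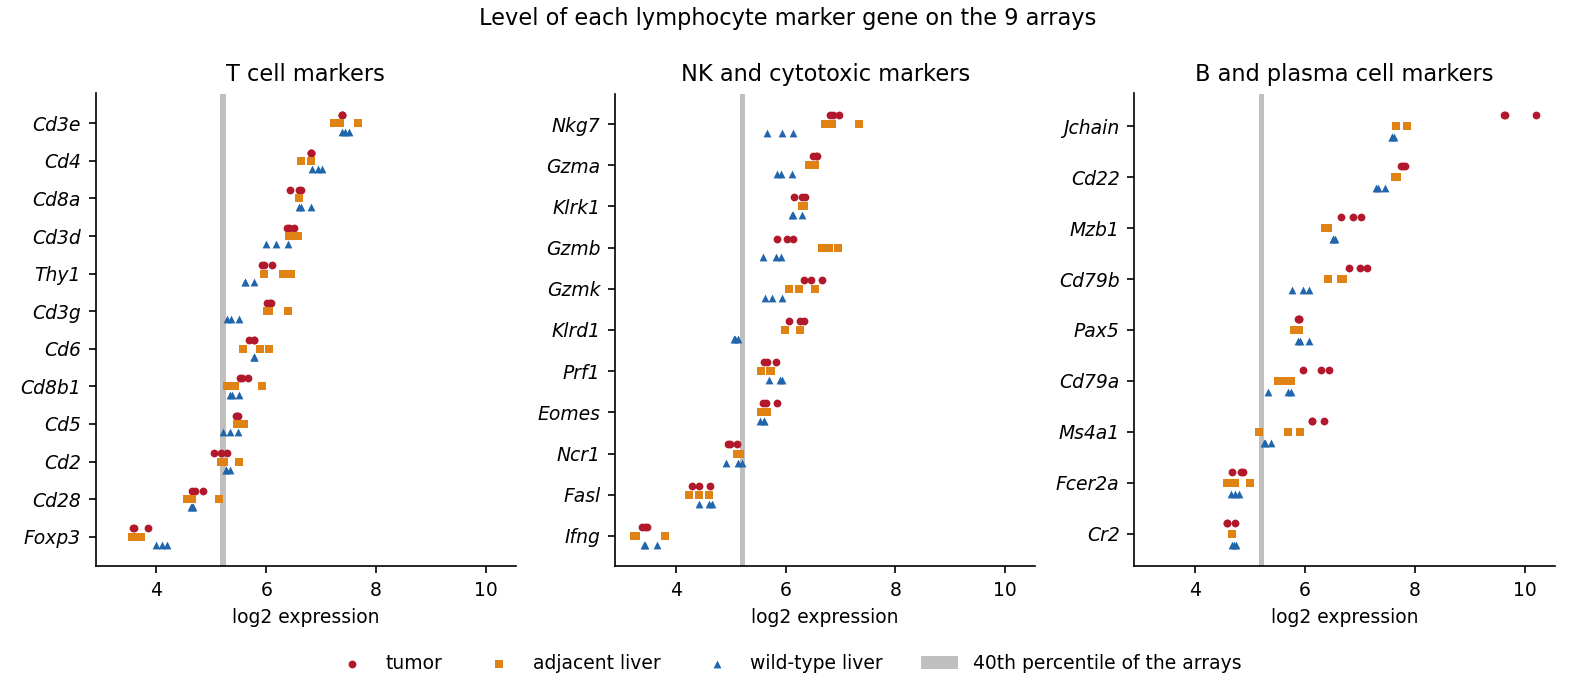
Log2 expression of the 32 lymphocyte markers with a probe set, 1 point per array, by lineage, with tumor (circles) above adjacent liver (squares) and wild-type liver (triangles) in each row. The grey band spans the 40th percentiles of the arrays, 5.16 to 5.26, and Jchain in tumor reaches 10.2, the highest level of any member.

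Few members differed by as much as 2-fold. Calling a gene took an adjusted p under 0.05 (limma, Benjamini-Hochberg over the 13888 genes tested) and a difference of 2-fold or more, which is 1 on the log2 scale. In tumor against wild-type liver 3 of the 25 members were called, all higher, where 13.0% of all genes were called, 8.41% higher and 4.59% lower. They were Jchain, Klrd1 and Cd79b. In adjacent against wild-type liver 2 were called higher, Nkg7 and Gzmb, where 11.5% of all genes were called, 8.29% higher and 3.22% lower. In tumor against adjacent liver Jchain alone was called, where 5.04% of all genes were called, 2.1% higher and 2.94% lower. The shares of members called are near this background. The same shares of all genes are the background for the counts called in the other lists below.

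Smaller differences leaned one way. By adjusted p alone, 13 members were higher and 0 lower in tumor, set against wild-type liver, where 33.2% of all genes were higher and 30.2% lower. In adjacent against wild-type liver 10 were higher and 1, Cd4, lower, against 34.0% and 28.9% of all genes. In tumor against adjacent liver 5 were higher and 1, Gzmb, lower, against 20.1% and 25.1% of all genes. The first pair of comparisons shares the wild-type arrays, so their counts are not independent. The members were also chosen with earlier results of these data known, which limits what a count against all genes shows. Groups without overlap were common. Of all 13888 genes, 4988 lay wholly above and 4611 wholly below wild-type liver in tumor, beside 13 and 1 of the 25 members. In adjacent against wild-type liver it was 5074 and 4579, beside 11 and 2 members, and in tumor against adjacent liver 3400 and 3963, beside 6 and 1. A lack of overlap, given below for single members, is thus not unusual on these arrays.

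The median log2 difference of tumor from wild-type liver was 0.64 over 7 B and plasma cell markers, 0.41 over 8 NK and cytotoxic markers and 0.05 over 10 T cell markers, beside -0.01 over all genes tested. In adjacent against wild-type liver it was 0.19, 0.53 and 0.10 in the same order of lineages, again beside -0.01. In tumor against adjacent liver it was 0.45, 0.04 and -0.05. No test was made of the difference between lineages. Centring each array on the median of the genes tested, a setting chosen after seeing the data, moved the median difference of all genes to -0.18 in tumor and -0.24 in adjacent liver against wild type, and under it the median of the T cell markers was -0.12 and -0.13 and that of the B and plasma cell markers in adjacent liver -0.05. With that centring 10 members were higher and 5 lower in tumor, set against wild-type liver by adjusted p, beside 3443 higher and 6776 lower of all 13888 genes. In adjacent liver 7 were higher and 7 lower, beside 3122 higher and 7627 lower of all genes. Of the called members Jchain alone stayed called in tumor and 0 in adjacent liver.

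**Figure D2:**
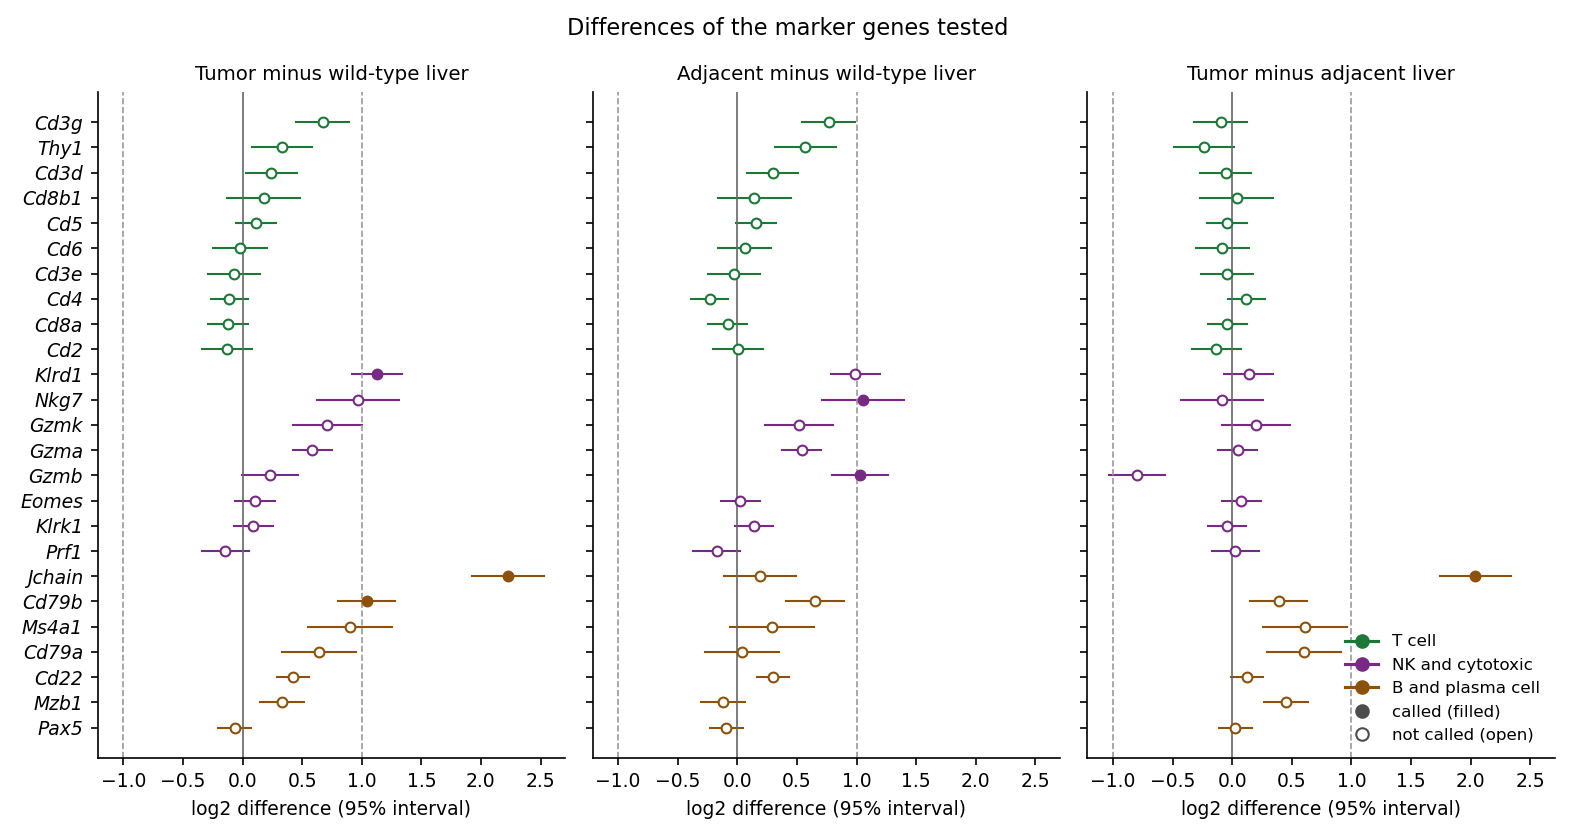
Log2 difference with its 95% interval for the 25 markers tested, by lineage, in the 3 comparisons, with dashed lines at a 2-fold difference and filled points for called genes. Jchain stands at 2.23 in tumor against wild-type liver and 2.04 in tumor against adjacent liver, and Gzmb at -0.80 in tumor against adjacent liver.

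Among T cell markers, none of the 10 tested was called in any comparison. By adjusted p alone, 3 were higher in tumor and 3 higher and 1 lower in adjacent liver than in wild-type liver. Over all genes 33.2% were higher in tumor and 34.0% in adjacent liver, so these counts of higher T cell markers are not above background. Cd3e, which encodes the CD3 epsilon chain of the T cell receptor complex, was the brightest. It read 7.38, 7.37 and 7.37 log2 in tumor, 7.35, 7.67 and 7.23 in adjacent liver and 7.44, 7.38 and 7.51 in wild-type liver. The 3 groups overlapped, and the difference of tumor from wild-type liver was -0.07 (95% interval -0.29 to 0.15, adjusted p = 0.547).

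Both co-receptors were close to level across groups. Cd4, the co-receptor of helper T cells and in other species also of macrophages, was at 6.82 log2 on each of the 3 tumor arrays, at 6.64, 6.82 and 6.64 in adjacent liver and at 6.94, 7.02 and 6.83 in wild-type liver. All adjacent values lay below all wild-type values, a log2 difference of -0.23 (SE 0.07, adjusted p = 0.015). Cd8a, the co-receptor of cytotoxic T cells, was at 6.64, 6.59 and 6.44 in tumor, 6.60 on each adjacent array and 6.81, 6.60 and 6.63 in wild-type liver. Its groups overlapped (tumor minus wild-type liver -0.12, 95% interval -0.29 to 0.04, adjusted p = 0.175), and of its 5 probe sets this is the brightest, with 3 of the other 4 under the 40th percentile on every array.

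Equal values such as those of Cd8a in adjacent liver were seen elsewhere in the deposited table. Within 0.0005 log2, all 3 arrays of a group agreed in 2 of 96 member and group pairs (2.08%) and in 274 of 54582 over all genes (0.502%). The SD of such a group is 0 and gives no measure of spread.

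Cd2, an adhesion receptor of T and NK cells, sat at the threshold of detection used here. It read 5.28, 5.17 and 5.05 log2 in tumor, 5.23, 5.51 and 5.17 in adjacent liver and 5.34, 5.27 and 5.27 in wild-type liver. It passed the 40th percentile on 1 tumor array and on all 6 others, and the groups overlapped (tumor minus wild-type liver -0.13, adjusted p = 0.249).

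The higher T cell markers are given by group means, and members described this way in the text were picked after their values were seen. Cd3g, the CD3 gamma chain, averaged 6.06 ± 0.04 log2 in tumor and 6.15 ± 0.21 in adjacent liver, against 5.38 ± 0.11 in wild-type liver (SD, n = 3 each). The differences from wild-type liver were 0.67 in tumor (adjusted p = 1.66e-04) and 0.77 in adjacent liver (adjusted p = 6.73e-05), and neither group overlapped wild-type liver. Cd3d, the CD3 delta chain, was 0.24 higher in tumor (adjusted p = 0.0474) and 0.30 higher in adjacent liver (adjusted p = 0.0201). The 3 CD3 chains, which assemble into the same receptor complex, thus gave -0.07, 0.24 and 0.67 in tumor for epsilon, delta and gamma.

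Thy1, a surface glycoprotein of mouse T cells that fibroblasts also carry, was 0.33 higher in tumor (adjusted p = 0.0251) and 0.57 higher in adjacent liver (adjusted p = 0.00132) than in wild-type liver. Fibroblast and stellate cell markers were higher in the same tissues, with 7 of 14 called higher and 1 lower in tumor, and 6 higher and 1 lower in adjacent liver. The collagen gene Col1a1 differed from wild-type liver by 2.66 in tumor and 3.15 in adjacent liver. The part of those cells in the Thy1 level was not tested. Cd8b1, Cd5 and Cd6 did not pass the adjusted p in any comparison, with differences between -0.08 and 0.18.

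Genes that work beside these markers in T cells differed in both directions, as all genes did. Of 10 tested genes of T cell receptor signalling, 3 were higher and 4 lower in tumor, and 4 higher and 3 lower in adjacent liver, set against wild-type liver by adjusted p. Over all genes 33.2% were higher and 30.2% lower in tumor, and 34.0% and 28.9% in adjacent liver, so these counts are near that background. In each tissue 1 was called, the adaptor gene Lcp2, higher at 1.28 in tumor and 1.15 in adjacent liver, which myeloid cells also express. Cd247, the CD3 zeta chain, was at 5.40, 5.33 and 5.36 log2 in tumor, 5.33, 5.73 and 5.48 in adjacent liver and 5.29, 5.31 and 5.01 in wild-type liver. Its difference was 0.16 in tumor (adjusted p = 0.208) and 0.31 in adjacent liver (adjusted p = 0.0274).

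Of 9 T cell transcription and homing genes, 1 was called, S1pr1, a receptor for egress from lymphoid tissue that endothelial cells also carry, lower in tumor by -1.81 than in wild-type liver and by -1.07 than in adjacent liver. Of 6 checkpoint genes, Cd274, the ligand PD-L1, was called in adjacent liver at 1.05 (adjusted p = 9.42e-06). It was at 0.97 in tumor (adjusted p = 1.49e-05), just under the 2-fold minimum. By adjusted p, 2 of the 6 checkpoint genes were higher and 2 lower than in wild-type liver, in tumor and in adjacent liver alike. Over all genes 33.2% were higher and 30.2% lower in tumor, and 34.0% and 28.9% in adjacent liver, so these counts are near background. Tox was among the lower ones, at -0.89 in tumor and -0.99 in adjacent liver. Its mean was 5.01 log2 in tumor and 4.91 in adjacent liver, against 5.91 in wild-type liver. The tumor and adjacent means lie under the threshold of detection used here, so neither difference is of a known size.

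A subset of the NK and cytotoxic markers was higher in tumor and in adjacent liver than in wild-type liver. Of the 8 tested, 1 was called higher in tumor and 2 in adjacent liver, and 4 and 5 were higher by adjusted p alone. The shares of all genes were 8.41% and 8.29% called higher, and 33.2% and 34.0% higher by adjusted p. Klrd1, which encodes CD94, the partner chain of NKG2 receptors on NK and CD8 T cells, had the smallest adjusted p of the 8 against wild-type liver. It read 6.06, 6.26 and 6.34 log2 in tumor, 5.99, 6.26 and 5.99 in adjacent liver and 5.06, 5.13 and 5.08 in wild-type liver.

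Klrd1 exceeded the 40th percentile on all tumor and adjacent arrays and on 0 of 3 wild-type arrays. It thus entered the test only through the groups where it was high, and the counts of members above include it. The difference was 1.13 in tumor (SE 0.09, adjusted p = 1.78e-06) and 0.99 in adjacent liver (SE 0.09, adjusted p = 5.69e-06), the second just under the 2-fold minimum. Since its wild-type values lie at the low end of the arrays, the fold change depends on the background there. Tumor and adjacent liver overlapped (0.14, 95% interval -0.07 to 0.34).

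Nkg7, a granule membrane protein needed for cytotoxic degranulation, read 6.97, 6.81 and 6.86 log2 in tumor, 6.72, 7.33 and 6.84 in adjacent liver and 5.93, 5.67 and 6.14 in wild-type liver. Every tumor and adjacent value lay above every wild-type value, a separation that was common among all genes. The difference was 0.97 in tumor (SE 0.15, adjusted p = 2.75e-04) and 1.05 in adjacent liver (SE 0.15, adjusted p = 1.64e-04). Without adjacent replicate 2, the highest, the adjacent value was 0.87, and without wild-type replicate 2 it was 0.93, both under the 2-fold minimum.

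Among the granzymes, the serine proteases of cytotoxic granules, Gzma and Gzmb differed in which tissue was high. Gzma read 6.57, 6.49 and 6.56 log2 in tumor, 6.54, 6.43 and 6.51 in adjacent liver and 5.85, 5.91 and 6.11 in wild-type liver. Tumor and adjacent liver were both above wild-type liver, by 0.59 in tumor (adjusted p = 4.58e-05) and 0.54 in adjacent liver (adjusted p = 9.39e-05), and overlapped each other. Gzmb read 6.03, 5.85 and 6.13 in tumor, 6.66, 6.96 and 6.79 in adjacent liver and 5.91, 5.82 and 5.59 in wild-type liver.

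Gzmb was thus high in adjacent liver alone. Adjacent minus wild-type liver was 1.03 (SE 0.11, adjusted p = 1.20e-05), tumor minus adjacent liver -0.80 (SE 0.11, adjusted p = 1.39e-04), and tumor minus wild-type liver 0.23 (95% interval -0.01 to 0.47, adjusted p = 0.0823). Without adjacent replicate 2 the adjacent difference was 0.95, and without wild-type replicate 3 it was 0.94, both under the 2-fold minimum. Gzmk, a granzyme of memory-type T cells, averaged 6.48 ± 0.17 in tumor and 6.29 ± 0.24 in adjacent liver, against 5.77 ± 0.16 in wild-type liver (SD, n = 3 each), with differences of 0.71 in tumor (adjusted p = 6.80e-04) and 0.51 in adjacent liver (adjusted p = 0.00543).

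Klrk1, which encodes the activating receptor NKG2D, read 6.30, 6.16 and 6.36 log2 in tumor, 6.32, 6.30 and 6.33 in adjacent liver and 6.14, 6.30 and 6.11 in wild-type liver. The groups overlapped, and the difference was 0.09 in tumor (95% interval -0.07 to 0.25) and 0.14 in adjacent liver (95% interval -0.02 to 0.30). Eomes, a T-box regulator of NK cells, and Prf1, the pore-forming protein perforin, did not pass the adjusted p in any comparison either. Prf1 has another probe set, which averaged 6.0 ± 0.07 in tumor, 5.51 ± 0.17 in adjacent liver and 5.31 ± 0.20 in wild-type liver, so its probe sets disagree on tumor against the rest, and perforin is reported as uncertain.

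The upstream bases of the granule genes are shown because these members stood together above wild-type liver in at least 1 tissue. The sequences are from RefSeq on GRCm38.p6, each 250 bases before the annotated start on the gene's own strand, 5′ to 3′. Capitals mark matches on either strand to the RUNX core, TGTGGT, or to a T-box motif that reads AGGTGTG. Nkg7 is at chr7:43436888-43437137 on the plus strand, and the others on the minus strand, Gzma at chr13:113100982-113101231, Gzmb at chr14:56262335-56262584 and Gzmk at chr13:113180966-113181215.
Nkg7: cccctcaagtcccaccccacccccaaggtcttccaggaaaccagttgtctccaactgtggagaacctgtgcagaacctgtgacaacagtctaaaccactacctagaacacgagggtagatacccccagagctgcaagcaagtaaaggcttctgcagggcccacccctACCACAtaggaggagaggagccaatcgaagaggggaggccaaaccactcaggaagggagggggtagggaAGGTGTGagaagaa
Gzma: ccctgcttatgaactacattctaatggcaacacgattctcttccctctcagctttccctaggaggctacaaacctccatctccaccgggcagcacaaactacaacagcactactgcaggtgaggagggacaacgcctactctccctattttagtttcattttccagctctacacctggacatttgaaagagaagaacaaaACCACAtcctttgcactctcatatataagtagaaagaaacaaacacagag
Gzmb: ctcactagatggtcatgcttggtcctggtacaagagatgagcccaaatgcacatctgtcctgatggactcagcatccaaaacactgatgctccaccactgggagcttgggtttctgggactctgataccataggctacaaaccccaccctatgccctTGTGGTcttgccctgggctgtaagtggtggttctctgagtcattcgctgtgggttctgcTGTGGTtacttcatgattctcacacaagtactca
Gzmk: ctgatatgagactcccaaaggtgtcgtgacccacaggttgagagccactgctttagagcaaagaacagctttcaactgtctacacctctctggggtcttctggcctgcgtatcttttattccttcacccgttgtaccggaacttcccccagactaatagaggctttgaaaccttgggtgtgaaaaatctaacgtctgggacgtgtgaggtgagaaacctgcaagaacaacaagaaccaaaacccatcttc

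RUNX and T-box factors are known regulators of cytotoxic genes. The RUNX core began 83 bases before the start of Nkg7 and 50 bases before that of Gzma on the opposite strand, and 93 and 34 bases before that of Gzmb on the same strand. The T-box motif stood 14 bases before the start of Nkg7. Over the lists, the RUNX core was found for 6 of 10 NK and cytotoxic members with a window, 1 of 7 T cell members and 1 of 6 B and plasma cell members, and in 14% of 32851 windows of all genes. A match is a description of these letters and not a binding site.

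Other NK and cytotoxic genes gave 3 called higher of 9 tested in tumor and 2 in adjacent liver, where 8.41% and 8.29% of all genes were called higher. The median difference of the 9 from wild-type liver was only 0.04 in tumor and 0.07 in adjacent liver. Klrg1, an inhibitory receptor, was lower by adjusted p, at -0.37 in tumor and -0.30 in adjacent liver. Serpinb9, an inhibitor of granzyme B, differed from wild-type liver by 1.68 in tumor and 1.77 in adjacent liver. Tyrobp, a signalling adaptor shared by NK and myeloid cells, differed by 1.51 in tumor and 1.33 in adjacent liver, and Fcgr3, an antibody receptor of the same cells, by 1.08 in tumor and 0.94 in adjacent liver. Each of the 3 is also expressed outside lymphocytes.

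Several B and plasma cell markers were higher in tumor than in both livers. Of 7 tested, 2 were called higher in tumor than in wild-type liver and 1, Jchain, than in adjacent liver. Of all genes 8.41% and 2.1% were called higher. By adjusted p, 6 were higher in tumor than in wild-type liver and 5 higher than in adjacent liver, while 2 were higher in adjacent than in wild-type liver. The shares of all genes higher by adjusted p were 33.2%, 20.1% and 34.0% in the same order, so the last count is not above background. Jchain, the joining chain of polymeric antibody and a plasma cell marker, had the largest difference of any member. It read 9.63, 9.64 and 10.2 log2 in tumor, 7.65, 7.85 and 7.85 in adjacent liver and 7.59, 7.58 and 7.62 in wild-type liver.

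All tumor values of Jchain stood well apart from the rest. Tumor exceeded wild-type liver by 2.23 (4.68-fold, SE 0.14, adjusted p = 1.74e-07) and adjacent liver by 2.04 (4.11-fold, SE 0.14, adjusted p = 1.09e-06). Adjacent minus wild-type liver was 0.19 (95% interval -0.11 to 0.49, adjusted p = 0.243). Mzb1, an endoplasmic reticulum protein that helps assemble antibody, read 6.66, 6.87 and 7.02 in tumor, 6.42, 6.37 and 6.42 in adjacent liver and 6.55, 6.51 and 6.51 in wild-type liver. It was higher in tumor than in wild-type liver by 0.33 (adjusted p = 0.00534) and than in adjacent liver by 0.45 (adjusted p = 0.00121), less than the 2-fold minimum.

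Cd79b, a signalling chain of the B cell receptor, was graded. It read 7.01, 6.80 and 7.13 log2 in tumor, 6.69, 6.42 and 6.66 in adjacent liver and 6.07, 5.97 and 5.77 in wild-type liver. No pair of groups overlapped, with tumor 1.04 above wild-type liver (SE 0.11, adjusted p = 1.07e-05), adjacent 0.65 above it (adjusted p = 3.87e-04) and tumor 0.39 above adjacent liver (adjusted p = 0.0131). The tumor call lies close to the 2-fold minimum: without tumor replicate 3 the difference was 0.97, and without wild-type replicate 3 it was 0.96.

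Cd22, an inhibitory receptor of B cells, read 7.79, 7.74 and 7.83 in tumor, 7.64, 7.67 and 7.67 in adjacent liver and 7.29, 7.45 and 7.33 in wild-type liver. The groups formed 3 steps without overlap, with tumor 0.43 and adjacent liver 0.30 above wild-type liver (adjusted p = 1.15e-04 and 0.00146), while tumor minus adjacent liver was 0.13 (adjusted p = 0.114). Ms4a1, the B cell antigen CD20, averaged 6.20 ± 0.13 in tumor, 5.59 ± 0.39 in adjacent liver and 5.30 ± 0.07 in wild-type liver (SD, n = 3 each). Cd79a, the partner of Cd79b, averaged 6.23 ± 0.25 in tumor, 5.63 ± 0.12 in adjacent liver and 5.59 ± 0.24 in wild-type liver. Both were higher in tumor than in either liver by adjusted p, Ms4a1 by 0.90 over wild-type liver and 0.61 over adjacent liver, and Cd79a by 0.64 over wild-type liver and 0.60 over adjacent liver, and neither passed in adjacent against wild-type liver. Pax5, the B cell identity factor, lay between 5.81 and 6.07 on all arrays and passed in no comparison.

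The upstream bases of Jchain and Cd79a are shown as the plasma cell marker that moved most and a B cell receptor chain that was higher in the same tissue. They are RefSeq GRCm38.p6 bases of the 250 positions before each start, Jchain at chr5:88527898-88528147 on the minus strand and Cd79a at chr7:24897247-24897496 on the plus strand, with no capitals because neither holds a match to any of the 6 motifs searched.
Jchain: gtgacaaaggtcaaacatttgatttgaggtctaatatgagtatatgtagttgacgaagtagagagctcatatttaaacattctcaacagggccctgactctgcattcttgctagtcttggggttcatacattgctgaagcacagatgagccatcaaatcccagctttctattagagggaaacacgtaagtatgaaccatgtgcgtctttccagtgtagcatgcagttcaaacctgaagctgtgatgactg
Cd79a: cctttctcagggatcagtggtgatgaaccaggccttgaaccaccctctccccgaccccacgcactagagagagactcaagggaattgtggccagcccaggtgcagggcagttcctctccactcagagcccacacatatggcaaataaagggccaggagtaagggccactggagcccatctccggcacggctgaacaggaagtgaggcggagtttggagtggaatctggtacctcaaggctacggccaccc

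Besides the RUNX core and the T-box motif, which 5.1% of all windows hold, the search covered 4 motifs on both strands. These were the octamer ATTTGCAT, in 1.6% of all windows, the E-box CAGCTG, in 13%, the PU.1-type site GAGGAAG, in 10.6%, and the TATA box TATAAA, in 12.4%. No matches shown overlapped. The octamer, a site of antibody gene promoters, was in 0 of the 28 windows of the 23 members that have one, which says only that these letters are not in those windows.

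Antibody chains were measured by 56 probe sets, 26 of which passed the filter. In tumor against wild-type liver 16 of the 26 were called higher and 0 lower, where 7.48% of 28009 probe sets were called higher and 4.1% lower. In tumor against adjacent liver 17 were called higher and 0 lower (background 2.16% higher and 2.38% lower), and in adjacent against wild-type liver 3 were higher and 2 lower (background 7.11% higher and 3.12% lower). Probe sets of these families share sequence, so they are not independent measurements. Among the 16, a kappa probe set passed the filter on the 3 tumor arrays alone, and a lambda probe set passed on no wild-type array. Their differences from wild-type liver are therefore not of a known size. Tumor replicate 3 was the highest tumor array for 20 of the 26, against 37.5% of all genes tested. The same array was also the highest for 17 of 20 pan-leukocyte, 15 of 18 macrophage and 13 of 14 endothelial markers, but for 1 of 10 T cell markers. Its high rank was thus not limited to antibody chains.

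Igha, the heavy chain of IgA, was represented by 3 probe sets that agree. The brightest read 10.84, 10.64 and 11.61 log2 in tumor, 9.30, 9.33 and 9.56 in adjacent liver and 9.64 on each wild-type array. Tumor minus wild-type liver ranged between 1.26 and 1.44 over the 3 probe sets and tumor minus adjacent liver between 1.51 and 1.63, while adjacent minus wild-type liver ranged between -0.25 and -0.18 and passed in none.

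Ighm, the heavy chain of IgM, had 8 tested probe sets that did not agree on adjacent liver. Tumor was above adjacent liver in all 8, with 7 called. In the brightest, the levels were 11.07, 11.78 and 11.53 in tumor, 8.54, 8.51 and 8.49 in adjacent liver and 10.90, 11.12 and 9.73 in wild-type liver. This probe set and 1 other placed adjacent liver below wild-type liver, by -2.07 and -1.57, whereas the other 6 placed it above, by 0.18 to 1.60. The direction of Ighm in adjacent against wild-type liver is therefore uncertain.

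**Figure D3:**
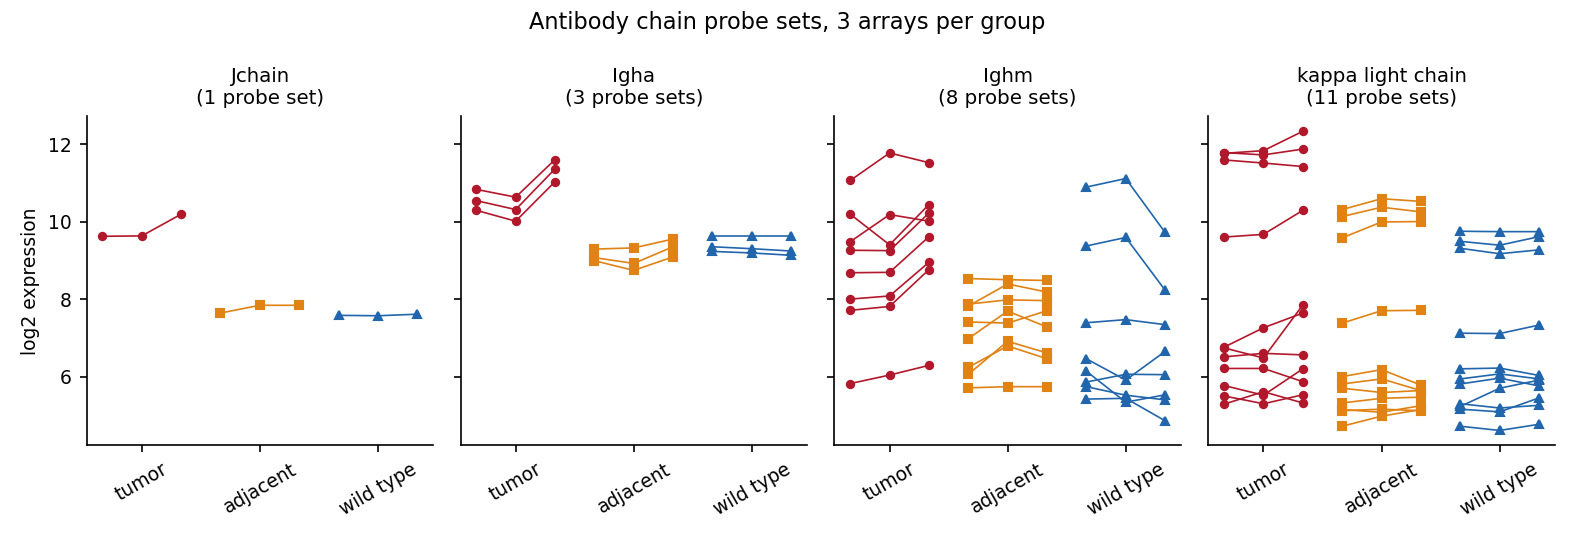
Log2 expression of Jchain, Igha, Ighm and kappa light chain probe sets that passed the filter, with the 3 arrays of tumor, adjacent liver and wild-type liver side by side and a line joining the values of 1 probe set within a group. Jchain and all 3 Igha probe sets are highest in tumor, and 2 bright Ighm probe sets are near the tumor level in wild-type liver but at 8.54 and below in adjacent liver.

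Other B cell genes were in part higher. Of 15 tested genes of B cell receptor signalling and identity, 3 were called higher in tumor and 3 in adjacent liver against wild-type liver, and 12 and 8 were higher by adjusted p. The shares of all genes were 8.41% and 8.29% called higher, and 33.2% and 34.0% higher by adjusted p. The adaptor Blnk read 9.12 on each tumor array, 9.45, 9.33 and 9.64 in adjacent liver and 5.52, 5.57 and 5.50 in wild-type liver, a difference of 3.59 in tumor and 3.94 in adjacent liver. Blnk is also expressed by macrophages.

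Pou2af1, a coactivator of B cells, differed from wild-type liver by 1.74 in tumor and 0.78 in adjacent liver, but it passed the 40th percentile on the tumor arrays alone, with adjacent values of 4.75, 4.17 and 5.14 and wild-type values of 3.82, 3.90 and 4.01, so neither difference is of a known size. Cd74, the invariant chain of all antigen-presenting cells, differed by 1.56 in tumor and 2.05 in adjacent liver, and Cd72, a B cell co-receptor, by 0.92 in tumor and 1.25 in adjacent liver. Of the 11 plasma cell and antibody genes tested, 3 were called higher in tumor against wild-type liver and 3 against adjacent liver. Derl3, of the degradation pathway of the endoplasmic reticulum, was 1.41 higher in tumor than in wild-type liver and 1.00 higher than in adjacent liver. Fkbp11, a folding enzyme of secretory cells, was 3.47 higher in tumor and 2.95 higher in adjacent liver than in wild-type liver. Hepatocytes are secretory cells as well, so Derl3 and Fkbp11 do not mark plasma cells alone.

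Genes of leukocytes in general had larger median differences than the lymphocyte markers. Of 20 pan-leukocyte genes 12 were called higher in tumor and 12 in adjacent liver against wild-type liver. Their median difference was 1.18 in tumor and 1.17 in adjacent liver, beside 0.24 in tumor and 0.16 in adjacent liver over the 25 lymphocyte markers. Ptprc, the common leukocyte antigen CD45, read 9.71, 9.57 and 9.75 log2 in tumor, 9.45, 9.73 and 9.60 in adjacent liver and 7.73, 7.76 and 8.13 in wild-type liver. It was 1.80 higher in tumor and 1.72 higher in adjacent liver than in wild-type liver. Coro1a, an actin regulator of leukocytes, was 2.12 higher in tumor and 2.06 higher in adjacent liver, and Evl, Laptm5 and Cytip were 1.20 to 1.99 higher in these tissues. No test was made of the difference between the lists.

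Markers of other leukocytes differed in the same tissues. The mean level over 18 macrophage markers was 9.18 to 9.52 log2 in tumor, 8.95 to 9.24 in adjacent liver and 8.66 to 8.75 in wild-type liver. In tumor 7 were called higher and 2 lower, in adjacent liver 6 higher and 3 lower. Cd14, a receptor for bacterial lipopolysaccharide, differed by 4.59 in tumor and 3.81 in adjacent liver, and the lysosomal protein gene Cd68 by 1.40 in tumor and 1.18 in adjacent liver. Cd163, a scavenger receptor, differed by -4.87 in tumor and -4.98 in adjacent liver. Over 10 neutrophil markers the mean was 6.81 to 7.08 in tumor, 6.74 to 6.94 in adjacent liver and 6.0 to 6.07 in wild-type liver, with 3 called higher in tumor and in adjacent liver. Of 9 dendritic cell markers 3 were called higher in tumor and 4 in adjacent liver. Ly6d, a surface protein of lymphoid progenitors that epithelial cells also make, differed by 6.61 in tumor and 5.19 in adjacent liver. Of 14 endothelial markers 1 was called higher in tumor, and 2 higher and 1 lower in adjacent liver. Of 6 cholangiocyte markers 1 was called higher in each tissue. Hepatocyte markers were the brightest list, with a mean of 12.12 to 12.19 in tumor, 12.41 to 12.55 in adjacent liver and 13.01 to 13.07 in wild-type liver, and 5 of 12 were called lower in tumor and 3 in adjacent liver. The part of these cells in genes that lymphocytes share with them was not tested.

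**Figure D4:**
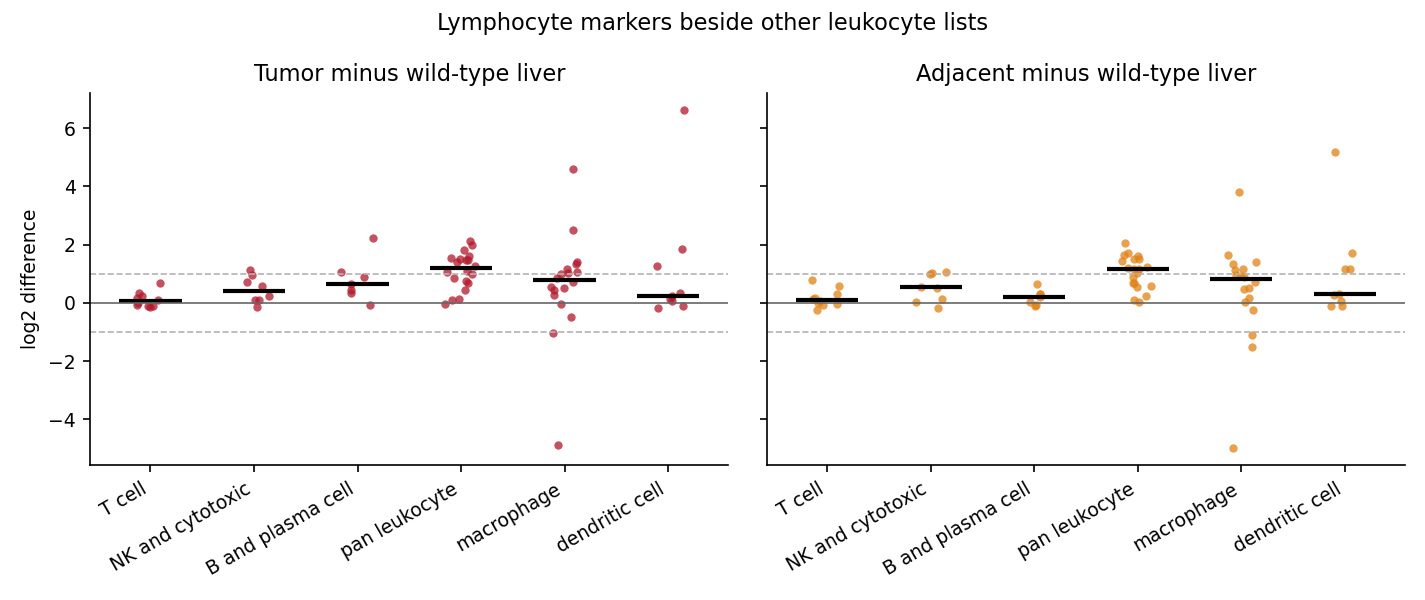
Log2 differences of single genes (points) and their median (black bars) for the 3 lymphocyte lists and 3 other leukocyte lists, in tumor against wild-type liver on the left and adjacent against wild-type liver on the right, with dashed lines at a 2-fold difference. The pan-leukocyte medians of 1.18 and 1.17 lie above those of the lymphocyte lists, and the lists differ in level.

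Of 17 tested chemokine and cytokine genes that act on lymphocytes, 4 were called higher and 1 lower in tumor, and 5 higher and 0 lower in adjacent liver, against wild-type liver. Ltb, lymphotoxin beta, read 10.04, 9.75 and 10.15 log2 in tumor, 8.89, 9.47 and 9.05 in adjacent liver and 6.74, 6.44 and 6.70 in wild-type liver, a difference of 3.35 in tumor and 2.51 in adjacent liver. Cxcl9, a chemokine that draws T and NK cells, differed by 1.75 in tumor and 2.05 in adjacent liver. Ccl5, a chemokine made by T and NK cells among others, read 9.29, 9.12 and 9.49 in tumor, 8.97, 9.51 and 9.28 in adjacent liver and 7.58, 7.82 and 7.93 in wild-type liver, a difference of 1.52 in tumor (adjusted p = 5.14e-06) and 1.48 in adjacent liver (adjusted p = 7.35e-06). Il15, the survival cytokine of NK cells, differed by 0.54 in tumor and 1.02 in adjacent liver.

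The 3 adjacent pieces were not alike in these markers. Adjacent replicate 2 was the highest of the 3 for 8 of 10 T cell markers, 5 of 8 NK and cytotoxic markers and 1 of 7 B and plasma cell markers, where it was the highest for 30.5% of all genes tested. It was the lowest for 0 of 10, 2 of 8 and 5 of 7, against 43.5% of all genes. The same piece was also the highest of the 3 for 7 of 11 genes of eye, brain, testis and skin, 5 of 6 cholangiocyte markers and 11 of 17 chemokine and cytokine genes, so its high rank was not limited to lymphocyte markers. The T cell markers averaged 6.09 to 6.34 log2 over the adjacent arrays, a wider range than the 6.10 to 6.16 of the tumor arrays and the 5.98 to 6.03 of the wild-type arrays. Of 14 endothelial markers it was the lowest for 8 and the highest for 5. The sinusoidal markers Lyve1 and Clec4g were lowest in it, at 8.12 and 9.03, against 9.24 and 9.30 and 10.13 and 10.23 in the other adjacent pieces, and Emcn was highest, at 8.83 against 7.48 and 7.85. The part of a different tissue composition of this piece in its marker levels was not tested.

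**Figure D5:**
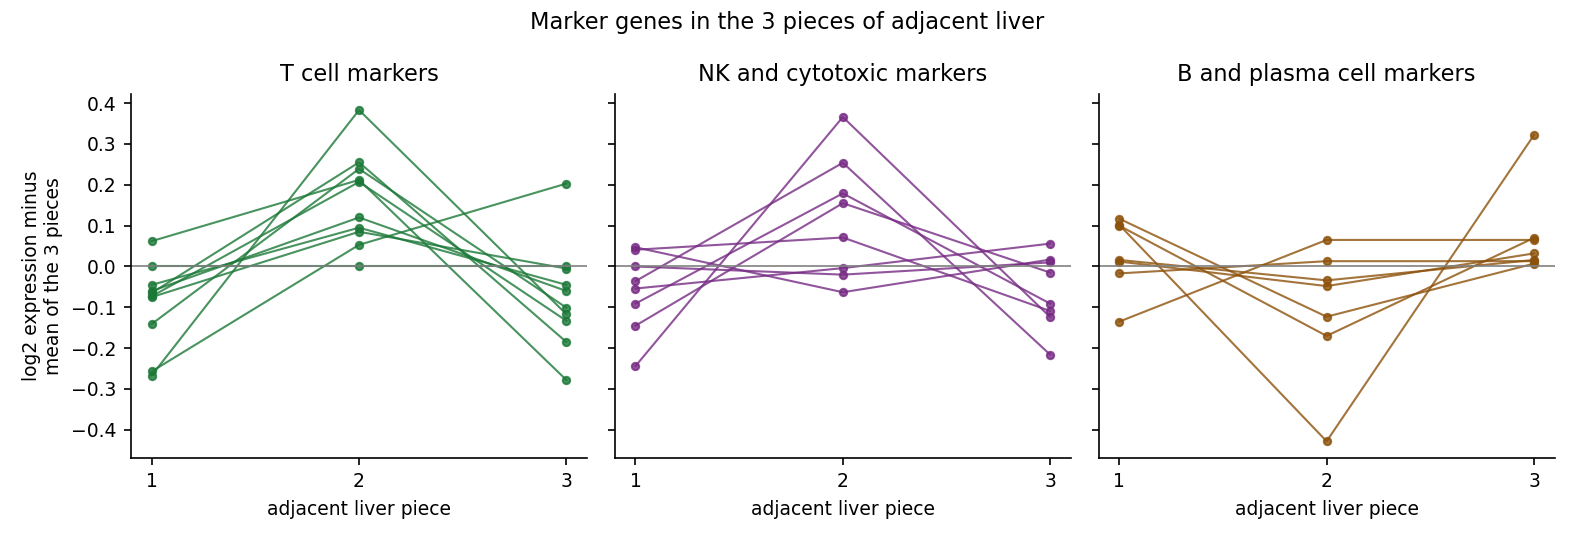
Log2 expression of each tested marker in the 3 adjacent pieces, as the difference from the mean of the 3, by lineage, with a line joining the values of 1 gene. Piece 2 is the highest for 8 of 10 T cell markers and the lowest for 5 of 7 B and plasma cell markers.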

How the data were processed

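Expression was measured on 9 Affymetrix 3' arrays with 45101 probe sets. The authors deposited log2 values per probe set, which per the submitters' processing notes come from RMA (Affymetrix Expression Console 1.3.1.187). RMA equalises the distributions of the arrays, so a change of most genes in one direction would not show. The number of arrays limits the precision. Scan dates were not used here. Of the probe sets, 34958 had 1 symbol in the platform's annotation. Genes entered the test when 3 or more of the 9 arrays showed them above the array's own 40th percentile. Differences were fitted with limma 3.58.1 in R 4.3.3 (lmFit and eBayes, 1 mean per group, all 9 arrays, Benjamini-Hochberg over 13888 genes), and a gene was called at adjusted p under 0.05 and a log2 difference of at least 1. The fit was tested on simulated data. Antibody chains were fitted over 28009 probe sets in the same way.

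The members and lists were chosen with earlier results of these data known. Values on every array are given for members called in a comparison, members past the 40th percentile on all 3 arrays of a group and on at most 1 of another, and the 3 brightest of each lineage. From each list of other lymphocyte genes up to 4 called genes are named by adjusted p, and from each cell type list up to 3. Replicate numbers did not pair the samples: same-numbered tumor and adjacent pieces correlated at 0.089, 0.061 and 0.040 in their deviations from the group means. Alternatives covered the normalization, filter, probe set choice, array weights, threshold, left-out arrays and replicate block.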

Additional observations from a re-analysis of the deposited data

Results flagged for a closer look

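Probe sets that carry several gene symbols were left out of the comparisons of genes, and 4 of the antibody light chain probe sets among them were called higher in tumor than in wild-type liver. The lambda chain probe set differed by 1.995 on the log2 scale, and the kappa chain probe sets by 2.72, 2.05 and 2.01. On every wild-type array the lambda probe set lay under the 40th percentile, so its difference is not of a known size. They cannot be assigned to 1 gene, and they share sequence with one another. No group had more than 3 arrays, so no array was tested as an outlier.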

How the results depend on the processing

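Over the 21 alternatives no member changed sign in a called difference, and the Jchain calls in tumor against wild-type and against adjacent liver held in every one run on it. Without a minimum difference, 8799, 8745 and 6274 genes and 13, 11 and 6 members passed in tumor against wild-type, adjacent against wild-type and tumor against adjacent liver. Centring arrays on the medians of the genes tested, chosen after seeing the data, left 1 member called in tumor (Jchain) and 0 in adjacent liver against wild-type liver, and moved the split of called genes to 934 higher and 867 lower in tumor (1168 and 638 as reported) and to 828 and 736 in adjacent liver (1152 and 447 as reported). With array weights 0 members were called in adjacent liver, with Nkg7 at 0.99 and Gzmb at 0.92, with both differences still past the adjusted p. Leaving out each array in turn gave 1795 to 1838, 1592 to 1645 and 681 to 732 genes, and 2 to 4, 0 to 3 and 1 to 1 members, in the same order of comparisons. The 0 came without adjacent replicate 2, and without wild-type replicate 3 there was 1. With the replicate number as a block 1807, 1599 and 700 genes and 3, 2 and 1 members were called, so the block changed no count of members. The calls of Klrd1, Cd79b, Nkg7 and Gzmb lie close to the 2-fold minimum. The threshold for low signal was arbitrary: 29 members passed the 30th percentile, 25 the 40th and 20 the 50th on at least 3 arrays.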
